A study of Mus musculus with 12 samples.

Results

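The 10 genes described here belong to the pathway that shows peptides from inside a cell to T cells, and were followed in 12 RNA sequencing libraries of mouse bone marrow derived macrophages (BMDMs). They were taken by symbol: the class I heavy chain genes H2-K1, H2-D1 and H2-T23, the light chain gene B2m, the peptide transport and loading genes Tap1, Tap2 and Tapbp, the immunoproteasome subunit genes Psmb8 and Psmb9, and the regulator Nlrc5. Of these 10 genes, 9 were matched to a row among the 23438 genes of the table, and Psmb9 was not analysed here. There were 5 libraries of Baf60a knockout (KO) macrophages and 7 of wild-type (WT) macrophages. All were primary cells grown out of bone marrow of atherosclerotic C57 mice and harvested on day 7 of macrophage differentiation. Baf60a is the protein of the gene Smarcd1, a subunit of the SWI/SNF complex that moves nucleosomes. The labels name neither the sex and age of the mice, nor how and in which cells the gene was deleted, nor whether each library came from its own mouse. The p-values therefore rest on the spread from library to library, part of which may be technical.

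Every nucleated cell makes class I molecules. Peptides are cut from cytosolic proteins by the proteasome, moved into the endoplasmic reticulum by the transporter made of Tap1 and Tap2, and loaded with the help of tapasin onto a heavy chain paired with beta-2 microglobulin. In macrophages and other immune cells, and after interferon, the immunoproteasome subunits replace the constitutive catalytic subunits, and Nlrc5 drives transcription of the heavy chain genes and their partners.

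Levels are given in TPM, a share of transcripts corrected for gene length, so they can be compared between genes within a library. Read depth per gene cannot be read from TPM, and in a bulk sample fewer cells of a type and less RNA per cell cannot be told apart. The targeted gene went with the labels: Smarcd1 was at 5.99 to 7.58 TPM in KO libraries and 11.6 to 15.6 TPM in WT libraries. Earlier results on these data set WT replicates 2, 3 and 4 apart from the other 9 libraries, and the summed fibroblast and smooth muscle markers showed this here too. The 8 such markers summed to 190 to 606 TPM in KO libraries, against 113 to 425 TPM in WT replicates 1, 5, 6 and 7 and 3905 to 9790 TPM in WT replicates 2, 3 and 4. Csf1r, whose product receives the main growth signal of macrophages, stood at 541 to 699.87 TPM in KO libraries, against 598 to 910.05 TPM in WT replicates 1, 5, 6 and 7 and 169.55 to 275 TPM in WT replicates 2, 3 and 4. The 9 macrophage markers summed to 14259 to 14741 TPM in KO libraries, against 23679 to 27115 TPM in WT replicates 1, 5, 6 and 7 and 7629.63 to 26284 TPM in WT replicates 2, 3 and 4. The gap between KO and WT replicates 1, 5, 6 and 7 lay in Lyz2, the lysozyme gene, at 4932 to 5853 TPM in KO libraries, against 14635 to 16912 TPM in those WT libraries (9-library difference -1.55, limma adjusted p of 5.68e-06). It was the 1 macrophage marker of 9 that passed in those 9 libraries, beside 2.33% of all genes tested. With 12 libraries Lyz2 did not pass (limma adjusted p of 0.111). WT replicates 2, 3 and 4 held 16587, 21547 and 5232 TPM of it, the last inside the KO range. The 8 markers other than Lyz2 summed to 8888 to 9441 TPM in KO libraries, against 9044 to 10988 TPM in WT replicates 1, 5, 6 and 7 and 2397 to 4737 TPM in WT replicates 2, 3 and 4, so the ranges of KO and the other 4 WT libraries overlapped. Of the 8 markers of T and NK cells, 5 stayed under 0.5 TPM in every library, as did 4 of 6 of dendritic cells and all 3 of B cells. Itgax, another marker of the dendritic cell list, was not near 0. It stood at 11.4, 44.8, 40.0, 22.5 and 31.7 TPM in KO replicates 1 to 5. In WT libraries it stood at 35.1, 31.7, 14.3 and 32.4 TPM in replicates 1, 5, 6 and 7, and at 7.30, 5.57 and 5.75 TPM in replicates 2, 3 and 4. The 3 endothelial markers summed to 2.92 to 3.96 TPM in KO libraries, against 3.32 to 5.49 TPM in WT replicates 1, 5, 6 and 7 and 6.30 to 32.7 TPM in WT replicates 2, 3 and 4.

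The 9 genes spanned a wide range of levels in an order that most libraries shared. B2m had the highest mean over the 12 libraries, at 1987 TPM, and lay above H2-D1 (mean 1713 TPM) in 11 of 12 libraries. H2-D1 exceeded H2-K1 (mean 1223 TPM) in all 12 libraries, and H2-K1 exceeded Psmb8 (mean 255 TPM) in all 12. Below these came H2-T23 (mean 155 TPM) and Tapbp (mean 133 TPM), whose order was turned round in WT replicates 2, 3 and 4. Tap2 (mean 35.5 TPM) and Tap1 (mean 33.1 TPM) did not keep a fixed order, with Tap1 higher in KO replicates 1 and 4 and WT replicate 6. Nlrc5 was lowest in all 12 libraries, with a mean of 12.7 TPM.

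H2-K1, H2-D1 and B2m encode the partners of the classical class I molecule, and their upstream sequences are shown because these 3 genes held a common arrangement of motifs. Each sequence is the stretch of 180 bases before the RefSeq start site on GRCm38.p6, 5′ to 3′ on the strand of the gene, with motif matches in capitals. The motifs searched on both strands were the interferon-stimulated response element core (GAAA, any 2 bases, GAAA), the gamma-activated site TTCNNNGAA, the kappa B site GGGNNTTCC, the X2 box TGACG and the Y box CCAAT, and no 2 matches overlapped. H2-T23, a class I gene of the non-classical kind, is shown beside them for comparison. H2-K1 (chr17:34000348-34000527, minus strand), H2-D1 (chr17:35262914-35263093, plus strand), B2m (chr2:122147507-122147686, plus strand) and H2-T23 (chr17:36032702-36032881, minus strand) read as follows.
H2-K1: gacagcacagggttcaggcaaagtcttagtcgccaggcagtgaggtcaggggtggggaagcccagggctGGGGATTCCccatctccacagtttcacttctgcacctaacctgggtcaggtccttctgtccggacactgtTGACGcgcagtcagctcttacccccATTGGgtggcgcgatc
H2-D1: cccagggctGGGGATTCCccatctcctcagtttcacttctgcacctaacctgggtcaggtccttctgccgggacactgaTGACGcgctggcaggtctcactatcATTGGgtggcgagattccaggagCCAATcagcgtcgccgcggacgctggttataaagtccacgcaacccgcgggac
B2m: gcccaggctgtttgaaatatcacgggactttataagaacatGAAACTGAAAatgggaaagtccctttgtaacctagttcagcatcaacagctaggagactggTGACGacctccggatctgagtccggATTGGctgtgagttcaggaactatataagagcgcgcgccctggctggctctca
H2-T23: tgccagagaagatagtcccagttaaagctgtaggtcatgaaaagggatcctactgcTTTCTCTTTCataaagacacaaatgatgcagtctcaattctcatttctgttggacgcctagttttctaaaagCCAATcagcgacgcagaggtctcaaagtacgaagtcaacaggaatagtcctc

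In H2-K1, H2-D1 and B2m the X2 box TGACG was followed, after 20 bases, by the Y box on the reverse strand (ATTGG). Of 32851 promoter windows of 250 bases in the RefSeq table, 18 (0.0548%) held TGACG and ATTGG at that spacing. They included the windows of these 3 genes and of H2-M3, another class I gene. This spacing was looked for after the sequences were seen. The X2 box alone was in 17.8% of all windows, the Y box in 33.8%, the kappa B site in 4.98%, the response element core in 2.98% and the gamma-activated site in 7.02%. Among the 8 listed genes with a window, the kappa B site was in H2-K1 and H2-D1, the response element core in B2m and H2-T23, and the gamma-activated site in Psmb8. A match is a description of letters and does not show that a factor binds there.

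Both classical heavy chain genes, whose products present peptides to CD8 T cells, were highest in KO replicates 1 and 4. H2-K1 (ENSMUSG00000061232, chromosome 17, 33996017 to 34000347 in mm10) stood at 1834, 1043, 1105, 1613 and 1138 TPM in KO replicates 1 to 5. In WT libraries it ran from 779 TPM in replicate 4 through a median of 1121 TPM to 1579 TPM in replicate 6. KO replicates 1 and 4 and WT replicate 6 thus lay above all other libraries, and the remaining KO libraries lay inside the WT range. The KO mean was 1346.5 ± 354 TPM (SD, n = 5) and the WT mean 1135 ± 245 TPM (SD, n = 7), a difference of 0.24 ± 0.182 (SE) on the log2(TPM + 1) scale with a limma adjusted p of 0.418.

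H2-D1 (ENSMUSG00000073411, chromosome 17, 35262730 to 35267499) stood at 2117, 1633, 1640, 1967 and 1689 TPM in KO replicates 1 to 5. WT libraries ran from 1332 TPM in replicate 4 through a median of 1667 TPM to 1949 TPM in replicate 2. KO replicates 1 and 4 were again the highest, and the groups overlapped. The fitted difference was 0.14 ± 0.107 (SE, limma adjusted p of 0.409). H2-K1 and H2-D1 are close in sequence to each other and to the H2-Q genes, so reads could be split between them and the level of each is uncertain.

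B2m, the light chain that every class I heavy chain needs (ENSMUSG00000060802, chromosome 2, 122147686 to 122153083), stood at 2565, 1985, 1842, 2238 and 2126 TPM in KO replicates 1 to 5. WT libraries ran from 1378 TPM in replicate 4 through a median of 1830.39 TPM to 2593 TPM in replicate 6. WT replicate 6 was the highest of all 12 libraries, just above KO replicate 1. KO differed from WT by 0.22 ± 0.133 (SE, limma adjusted p of 0.346). The ratio of H2-K1 plus H2-D1 to B2m within a library is free of the scaling of TPM, and it lay between 1.33 and 1.60 in KO libraries and between 1.31 and 1.66 in WT libraries. The mean log2 ratio was 0.54 ± 0.118 in KO and 0.58 ± 0.117 in WT libraries (SD), a difference of -0.034 with an exact permutation p of 0.616 over the 792 splits of 12 libraries (0.616 after adjustment over 4 ratios).

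H2-T23, which encodes the non-classical molecule Qa-1 that presents leader peptides of other class I chains, did not follow the same libraries (ENSMUSG00000067212, chromosome 17, 36029773 to 36032855). It stood at 172.5, 196, 199.55, 187 and 204 TPM in KO replicates 1 to 5. In WT libraries it stood at 148, 157 and 149.61 TPM in replicates 1, 5 and 7, at 234 TPM in replicate 6, and at 80.3, 83.7 and 44.8 TPM in the libraries of replicates 2, 3 and 4. KO libraries thus lay above 6 of the 7 WT libraries and below WT replicate 6. The KO mean was 192 ± 12.3 TPM (SD, n = 5) and the WT mean 128 ± 63.5 TPM (SD, n = 7). The fitted difference of 0.74 ± 0.333 (SE) was the largest of the 9 genes, with an unadjusted p of 0.0454 and a limma adjusted p of 0.280.

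**Figure D1:**
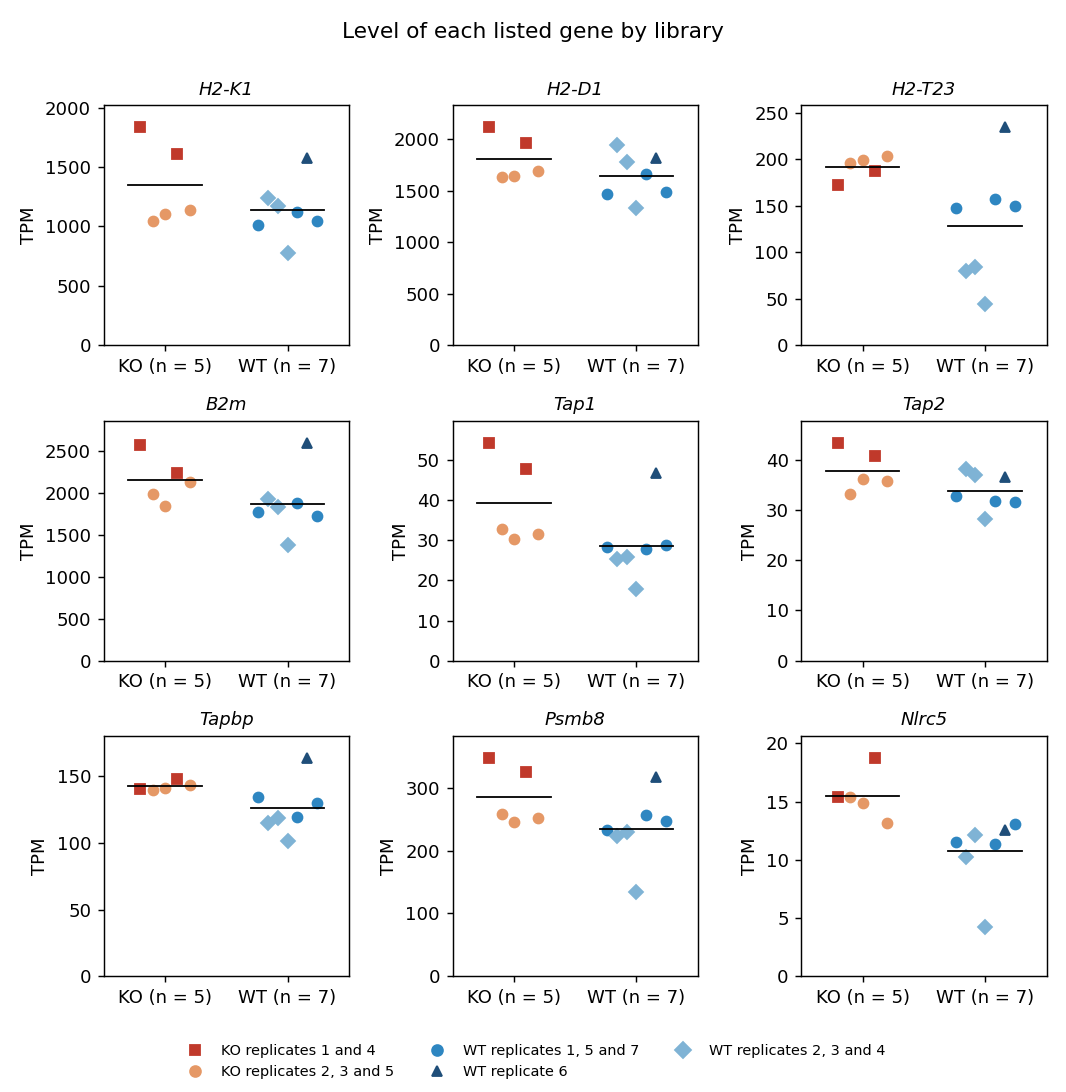
Level in TPM (vertical axes, linear from 0) of the 9 listed genes in 5 KO and 7 WT libraries. Each point is a library and each line a group mean, and symbols mark the libraries described in the text. KO replicates 1 and 4 and WT replicate 6 stand high for H2-K1, Tap1 and Psmb8, while WT replicates 2, 3 and 4 stand lowest for H2-T23.

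Tap1 and Tap2 encode the chains of the peptide transporter, and lie with Psmb8 and Psmb9 in 1 cluster on chromosome 17. Tap1 (ENSMUSG00000037321, 34187553 to 34197225) stood at 54.3, 32.7, 30.2, 47.8 and 31.55 TPM in KO replicates 1 to 5. WT libraries ran from 17.9 TPM in replicate 4 through a median of 27.7 TPM to 46.8 TPM in replicate 6, with replicates 1, 5 and 7 at 28.2, 27.7 and 28.75 TPM. The same 3 libraries as for H2-K1 stood above the rest, and every KO library lay above every WT library other than replicate 6. The fitted difference was 0.45 ± 0.211 (SE, limma adjusted p of 0.289). The start sites of Tap1 and Psmb9 point away from each other and lie 226 bases apart in the RefSeq table, and the annotated transcripts overlap. No label says how strand was handled, so reads of the overlap cannot be assigned to 1 gene.

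Tap2 (ENSMUSG00000024339, 34203527 to 34216321) varied less, at 43.4, 33.25, 36.1, 40.7 and 35.7 TPM in KO replicates 1 to 5 and between 28.3 and 38.2 TPM in WT libraries, with a median of 32.8 TPM. The groups overlapped, and WT replicates 2, 3 and 6 lay above 3 of the 5 KO libraries. On the log2 scale KO differed from WT by 0.16 ± 0.0878 (SE, limma adjusted p of 0.320). The log2 ratio of Tap1 to Tap2 averaged 0.0192 ± 0.253 in KO and -0.28 ± 0.349 in WT libraries (SD), a difference of 0.30 (exact permutation p of 0.149, or 0.298 after adjustment over 4 ratios). Tap1 exceeded Tap2 in KO replicates 1 and 4 and WT replicate 6 alone among the 12 libraries.

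Tapbp encodes tapasin, which holds empty class I molecules at the transporter (ENSMUSG00000024308, chromosome 17, 33915899 to 33929292). It was the most even of the 9 genes in KO libraries, at 140.43, 139.8, 142, 148 and 144 TPM. WT libraries ran from 102 TPM in replicate 4 through a median of 119.55 TPM to 164 TPM in replicate 6, and every KO library lay above 6 of the 7 WT libraries. Its difference on the log2 scale was 0.19 ± 0.0952 (SE, limma adjusted p of 0.307).

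Psmb8 encodes the immunoproteasome subunit that takes the place of Psmb5 (ENSMUSG00000024338, chromosome 17, 34197721 to 34201454). It stood at 347, 258, 245, 326 and 251 TPM in KO replicates 1 to 5. WT libraries ran from 134 TPM in replicate 4 through a median of 232 TPM to 317 TPM in replicate 6. KO replicates 1 and 4 and WT replicate 6 were again the 3 highest, and the other KO libraries overlapped the WT range. The fitted difference was 0.31 ± 0.178 (SE, limma adjusted p of 0.330).

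The balance between the transcripts of exchanged subunits was taken as a ratio within a library. Psmb8 transcripts per Psmb5 transcript came to 0.834, 0.610, 0.580, 0.796 and 0.603 in KO replicates 1 to 5. In WT libraries the ratio was 0.531, 0.553 and 0.553 in replicates 1, 5 and 7, 0.799 in replicate 6, and 0.374, 0.394 and 0.282 in replicates 2, 3 and 4. Every KO library lay above the 6 WT libraries other than replicate 6. The mean log2 ratio was -0.56 ± 0.248 in KO and -1.08 ± 0.490 in WT libraries (SD), a difference of 0.51 with an exact permutation p of 0.0429, which became 0.172 after adjustment over 4 ratios. Without WT replicate 6, the WT library with the highest ratio, the difference was 0.64 with an adjusted exact permutation p of 0.0173. That was the lowest adjusted p when each of the 12 libraries was left out, and the highest was 0.412. WT replicate 6 had been set apart by earlier results on these data and was the only WT library inside the KO range. The p-values without it are therefore given as description only. Without WT replicates 2, 3 and 4 the difference was 0.17 with an adjusted p of 0.730. With WT replicate 6 left out as well it was 0.31 with an adjusted p of 0.143. For Psmb10, the immunoproteasome subunit that takes the place of Psmb7, the mean log2 ratio was -0.928 ± 0.182 in KO and -1.197 ± 0.453 in WT libraries (SD), a difference of 0.27 (exact permutation p of 0.263, adjusted 0.350). Without WT replicates 2, 3 and 4 that difference was -0.0603 with an adjusted p of 0.730.

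**Figure D2:**
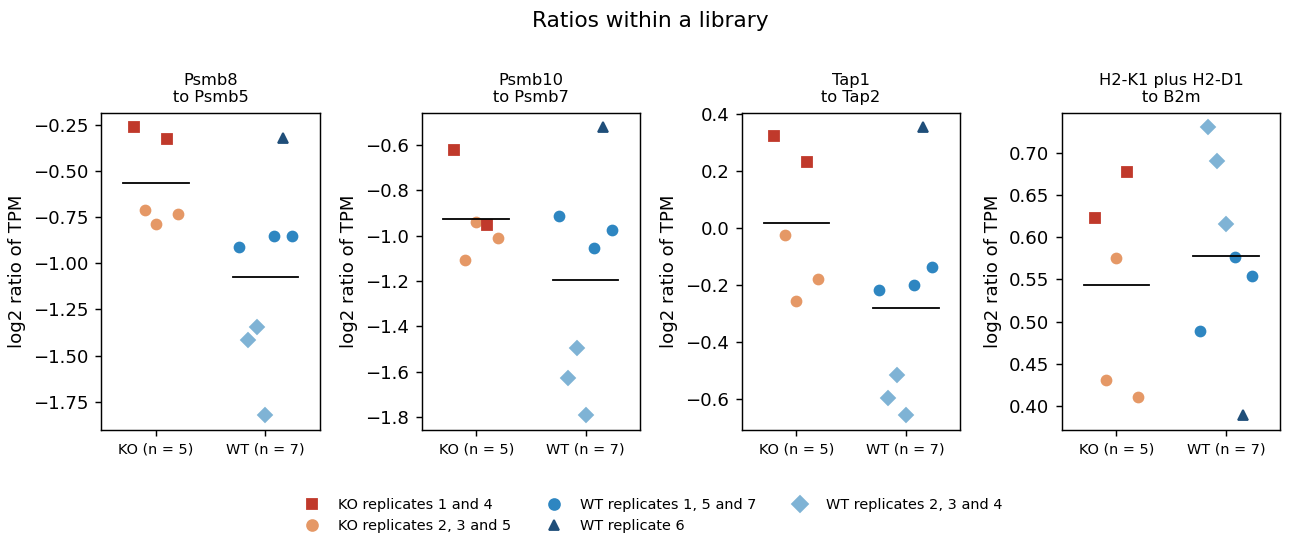
Log2 ratio of TPM within a library (vertical axes) for 2 immunoproteasome subunits over the constitutive subunits they replace, for Tap1 over Tap2, and for the summed classical heavy chains over B2m. Each point is a library, KO left and WT right, and lines are group means. WT replicate 6 lies among or above the KO libraries in the first 3 panels, and WT replicates 2, 3 and 4 lie below all others there.

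Nlrc5, the transactivator of class I genes (ENSMUSG00000074151, chromosome 8, 94434356 to 94527272), was the 1 listed gene of 9 whose groups did not overlap with 12 libraries. It stood at 15.4, 15.39, 14.9, 18.7 and 13.2 TPM in KO replicates 1 to 5. WT libraries ran from 4.19 TPM in replicate 4 through a median of 11.5 TPM to 13.1 TPM in replicate 7, with replicate 6 at 12.6 TPM. The gap was narrow, between 13.16 TPM in KO replicate 5 and 13.06 TPM in WT replicate 7. Among all 11152 genes tested, 2.92% had every KO library above every WT library. The KO mean was 15.5 ± 2.02 TPM (SD, n = 5) and the WT mean 10.7 ± 3.02 TPM (SD, n = 7). The fitted difference was 0.55 ± 0.221 (SE), with a 95% confidence interval of 0.0679 to 1.03, an unadjusted p of 0.0287 and a limma adjusted p of 0.255.

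The design sets KO against WT macrophages, and with all 12 libraries none of the 9 genes passed the threshold. With limma on log2(TPM + 1) and Benjamini-Hochberg adjustment over 11152 genes, 0 of 9 had an adjusted p under 0.05, beside 0.126% of all genes tested. At an unadjusted p under 0.05, 2 of 9 (H2-T23 and Nlrc5) were higher, beside 14.3% of all genes. Of all genes 14 passed, 12 higher and 2 lower in KO. Dividing each library by its median ratio gave 2 higher and 2 lower. All 9 listed genes had positive fitted differences, beside 57.9% of all genes tested, and this count is not independent evidence, since the genes share libraries. The median difference of the 9 genes was 0.24, beside 0.0433 over all genes tested. Without WT replicates 2, 3 and 4, again 0 of 9 passed, beside 2.33% of all genes. At an unadjusted p under 0.05, 2 of 9 (Nlrc5 and Tap2) were higher, beside 14.6% of all genes. In that set 260 genes passed, 180 higher and 80 lower, or 83 higher and 138 lower with median-ratio scaling. The listed genes had a median difference of 0.17, beside 0.0470 over all genes tested. H2-T23 moved most between the sets, with 0.74 in 12 libraries and 0.18 ± 0.127 (SE) in 9 (limma adjusted p of 0.492), and Nlrc5 had 0.33 ± 0.0890 (SE) in 9 libraries (limma adjusted p of 0.0866).

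**Figure D3:**
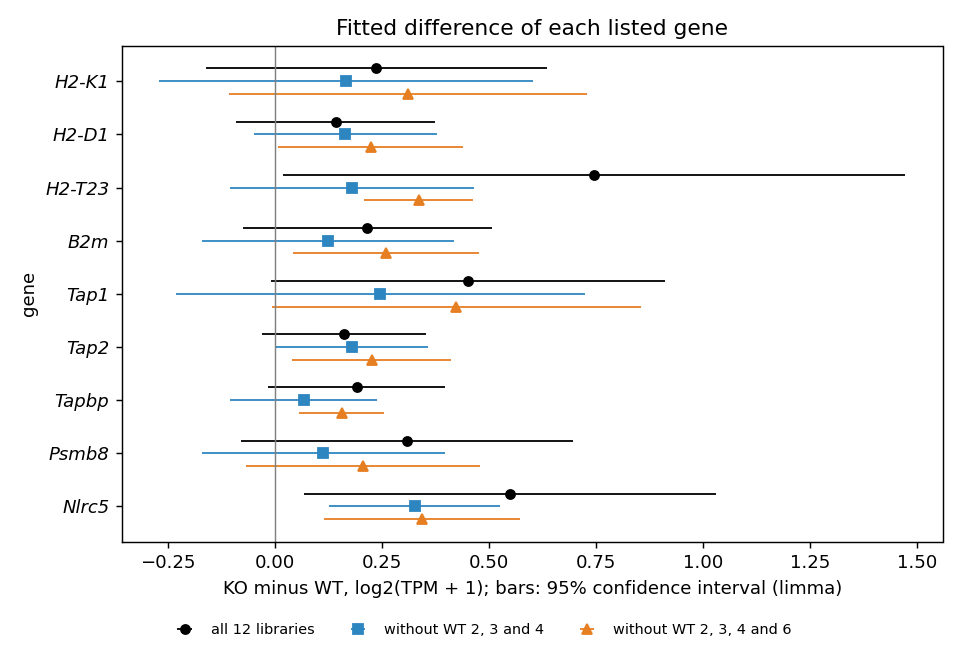
Fitted difference between KO and WT on the log2(TPM + 1) scale (horizontal axis) for each listed gene (vertical axis), with 95% confidence intervals from limma. Circles use all 12 libraries, squares leave out WT replicates 2, 3 and 4, and triangles leave out WT replicate 6 as well. The intervals of H2-K1 include 0 in all 3 sets, and that of H2-T23 narrows to 0.208 to 0.463 in the set without WT replicate 6.

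WT replicate 6 is given apart because earlier results on these data had set it apart. It had the highest level of all 12 libraries for 3 of the 9 genes (H2-T23, B2m and Tapbp) and was among the 3 highest for 6 of 9. Its levels lay between 0.981 and 1.59 times the median library of a gene, with Nlrc5 at the low end and Tap1 at the high end. Transcripts of many interferon induced genes were high in it: Irf7, the factor that amplifies type I interferon, was at 96.7 TPM there. Others were not high in it. Cd274 was at 9.69 TPM there, against 8.34 to 15.2 TPM in KO libraries, and Gbp7 at 1.26 TPM, against 1.65 to 1.87 TPM. Irf7 stood at 39.0 to 64.9 TPM in KO libraries, at 21.8, 21.1 and 24.1 TPM in WT replicates 1, 5 and 7, and 25.2, 15.1 and 4.51 TPM in WT replicates 2, 3 and 4. Ifng, the gene of interferon gamma, was at or below 0.03 TPM in all 12 libraries. With WT replicates 2, 3, 4 and 6 all left out, so that 5 KO stood against 3 WT libraries, H2-T23 was higher in KO, by 0.34 ± 0.0560 (SE, limma adjusted p of 0.0164). It was the 1 gene of 9 that passed, beside 4.14% of all genes tested. In the same set 5 of 9 genes (H2-T23, Tap1, Tap2, Tapbp and Nlrc5) had every KO library above every WT library, beside 12.2% of all genes. H2-K1 was at 0.31 ± 0.184 (SE, limma adjusted p of 0.410) and Nlrc5 at 0.34 ± 0.1005 (SE, limma adjusted p of 0.101). With WT replicate 6 kept and WT replicates 2, 3 and 4 left out, the difference of H2-T23 was 0.18 (limma adjusted p of 0.492). The set without WT replicate 6 was chosen from results on these same data, and that library held the highest H2-T23. Its p-values and counts are therefore given as description only. Why WT replicate 6 differs from the other WT libraries was not tested.

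WT replicates 2, 3 and 4 did not lie on 1 side of the other WT libraries. Replicate 4 had the lowest level of all 12 libraries for all 9 genes, at 0.272 (H2-T23) to 0.794 (H2-D1) times the median library. Replicates 2 and 3 were low for H2-T23, at 0.487 and 0.507 times the median, and for Tap1 (25.3 and 25.9 TPM) and Tapbp (115 and 119 TPM). They were not low for the classical heavy chains: H2-D1 stood at 1949 and 1779 TPM and H2-K1 at 1239 and 1174 TPM, above WT replicates 1, 5 and 7, which lay at 1471, 1667 and 1492 TPM for H2-D1 and 1010.04, 1121 and 1042 TPM for H2-K1. H2-M3 and Psme1 were low in these libraries, as given below, and the constitutive subunit Psmb5 was high, at 596, 581 and 475 TPM, against 397 to 463 TPM in the other WT and 409 to 423 TPM in KO libraries. These 3 libraries held the fibroblast and smooth muscle transcripts given above and little of the neutrophil transcripts, and the part of those cells in the levels of the listed genes was not tested.

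**Figure D4:**
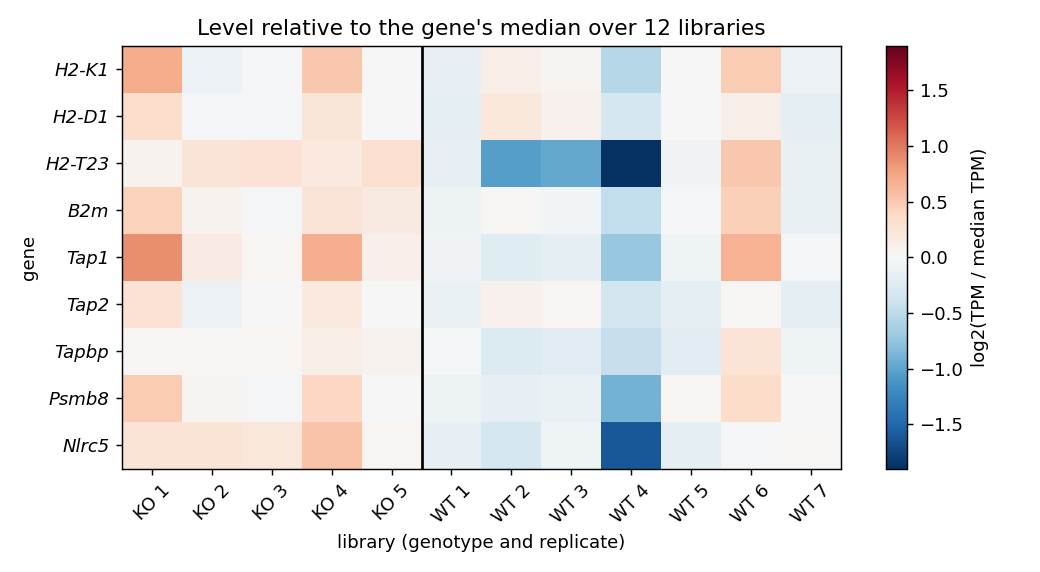
Level of each listed gene (rows) in each library (columns, KO left of the line and WT right) as log2 of TPM over the gene's median across 12 libraries. Red is above and blue below the median. KO 1, KO 4 and WT 6 are red for H2-K1, B2m, Tap1 and Psmb8, WT 4 is blue in all 9 rows, and H2-T23 is blue in WT 2 and WT 3 where H2-K1 and H2-D1 are not.

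The libraries with high class I levels differed in their neutrophil markers and shared low fibroblast and smooth muscle markers. The 8 fibroblast and smooth muscle markers summed to 190 TPM in KO replicate 1, 274 TPM in KO replicate 4 and 113 TPM in WT replicate 6. Every other library held more, the nearest being WT replicate 5 at 393 TPM. The 7 neutrophil markers summed to 6247, 2104, 1914, 4372 and 1003 TPM in KO replicates 1 to 5, against 1191 to 1544.5 TPM in WT replicates 1, 5, 6 and 7 and 79.1 to 108 TPM in WT replicates 2, 3 and 4. KO replicates 1 and 4, the libraries with the most neutrophil transcripts, were those with the highest H2-K1, while WT replicate 6 held 1579 TPM of H2-K1 with a neutrophil marker sum of 1191 TPM. KO replicates 1 and 4 held the highest H2-K1, Tap1 and Psmb8 and were left out after these values were seen. Lower differences without them follow from that choice and are given as description only. Without KO replicates 1 and 4 the fitted difference of H2-K1 was -0.0238 (limma adjusted p of 0.950) with the other 10 libraries. With WT replicates 2, 3 and 4 also left out, it was -0.0942 for H2-K1, -0.0254 for Tap1 and -0.0553 for Psmb8. With WT replicate 6 left out as well, all 9 listed genes had positive differences again, with H2-K1 at 0.0506, Tap1 at 0.15 and Psmb8 at 0.0376, and a median of 0.15, beside 0.0389 over all genes tested. Only H2-K1, Tap1 and Psmb8 had a negative difference in any of these 3 sets. The other listed genes, H2-T23 and Nlrc5 among them, had positive differences in all 3. Whether neutrophils or their precursors, or the share of fibroblast and smooth muscle transcripts, bear on the class I levels of these libraries was not tested.

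**Figure D5:**
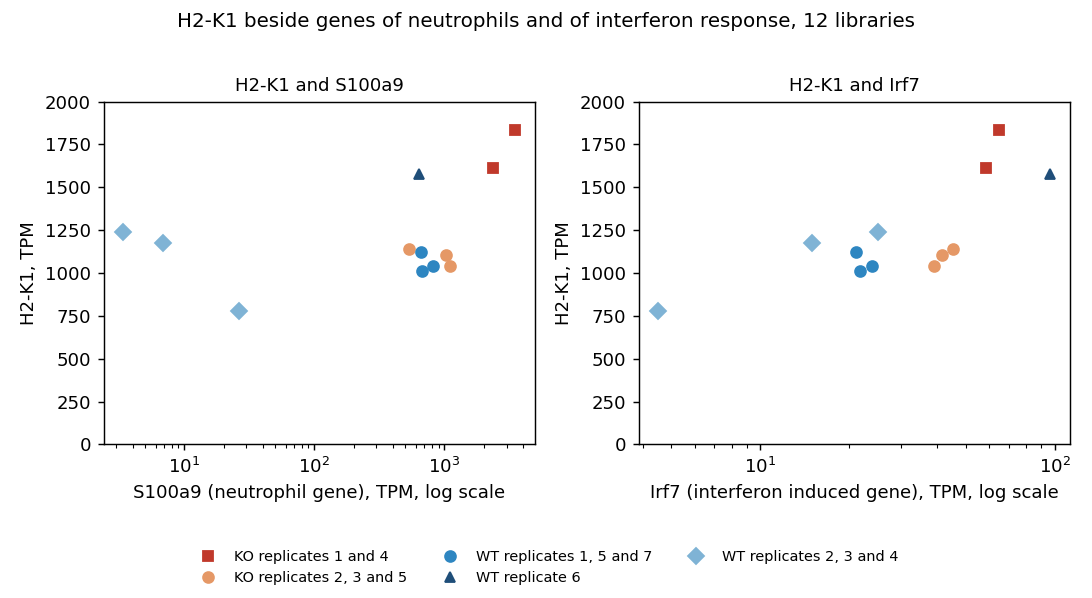
H2-K1 level (vertical axes, TPM, linear) in the 12 libraries against the neutrophil gene S100a9 (left) and the interferon induced gene Irf7 (right), both on log axes in TPM. KO replicates 1 and 4 hold the most S100a9 (3507 and 2375 TPM), and WT replicate 6, at 632 TPM of S100a9, holds the most Irf7.

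The other genes of the pathway were counted in lists chosen with earlier results known. With 12 libraries 0 of 80 tested genes of these 7 lists passed, beside 0.126% of all genes tested. The count was also 0 with 9 libraries, beside 2.33% of all genes. With shares this small, a count of 0 says little about these lists. Among the 12 tested class I and class I-like genes other than those listed, H2-M3, which presents formylated peptides, stood at 40.0 to 57.8 TPM in KO libraries, against 37.8 to 53.2 TPM in WT replicates 1, 5, 6 and 7 and 18.2, 21.9 and 13.25 TPM in WT replicates 2, 3 and 4 (difference 0.65, limma adjusted p of 0.294). H2-T24 stood at 7.43 to 8.96 TPM in KO libraries, at 5.15, 4.79 and 4.5 TPM in WT replicates 1, 5 and 7, at 13.04 TPM in replicate 6 and at 4.13, 3.64 and 1.49 TPM in replicates 2, 3 and 4 (difference 0.74, limma adjusted p of 0.268). For H2-T24, as for H2-T23, every KO library lay below WT replicate 6 and above the other WT libraries. H2-Q6 had a difference of 0.43 (limma adjusted p of 0.447).

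Of 8 tested genes for loading and trimming, Lnpep and Erap1, which encode aminopeptidases that trim peptides for class I molecules, had the largest differences, at 0.60 and 0.55 (limma adjusted p of 0.149 and 0.217). Erap1 stood at 31.2 to 37.2 TPM in KO libraries, against 26.2 to 33.0 TPM in WT replicates 1, 5, 6 and 7 and 15.7 to 18.1 TPM in WT replicates 2, 3 and 4. Tapbpl, a relative of tapasin, had a difference of 0.23 (limma adjusted p of 0.226). Among the 6 genes of the immunoproteasome and its activator, Psme1 and Psme2, the subunits of the activator that interferon induces, had differences of 0.42 and 0.23 (limma adjusted p of 0.284 and 0.255). Psme1 stood at 185 to 212 TPM in KO libraries, against 166 to 225 TPM in WT replicates 1, 5, 6 and 7 and 91.2 to 120.08 TPM in WT replicates 2, 3 and 4. Psmb10 had a difference of 0.21 (limma adjusted p of 0.358).

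The constitutive subunits Psmb5, Psmb6 and Psmb7 had differences of -0.20, -0.15 and -0.0532, none past the threshold (limma adjusted p of 0.293, 0.448 and 0.665). The 11 other core proteasome subunits had a median difference of -0.0744 with 12 libraries and 0.0635 with 9. Psmb3, Psma1 and Psma6 had the largest, at -0.17, 0.14 and -0.11. Among the tested regulators, Stat2 and Irf9, which carry the interferon signal to the nucleus, had differences of 0.72 and 0.65, with limma adjusted p-values of 0.302 and 0.291. Among 18 tested interferon induced genes the largest differences were those of Oasl2 (1.202), Irf7 (1.15) and Zbp1 (0.86), with limma adjusted p-values of 0.250, 0.283 and 0.283. With WT replicates 2, 3, 4 and 6 left out, 11 of these 18 genes passed the threshold and all 11 were higher in KO, beside 3.16% of all genes tested. In that set the regulators Irf9, Ifngr1 and Ifnar1, 2 of the 8 loading and trimming genes (Erap1 and Lnpep) and H2-T24 were higher in KO and Cd1d1, which presents lipids, was lower. WT replicate 6 was left out because of earlier results on these data, and held the most Irf7, Oasl2 and Zbp1 of all libraries. With it kept, 0 of the 18 interferon induced genes passed in 9 libraries, so the calls without it are given as description only.

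The genes whose pattern over libraries was most like that of the 9 listed genes were sought by Pearson correlation of log2(TPM + 1) with the mean of the z-scores of the 9 genes, among unlisted genes averaging 5 TPM or more. The correlations describe these libraries, which share genotypes and differ in marker transcripts, and carry no test. Over 12 libraries the 5 closest were Epsti1 (0.934), Ms4a6b (0.930), Cep85 (0.929), Parp12 (0.926) and Sp100 (0.925). Over the 9 libraries without WT replicates 2, 3 and 4 they were Ppp1r13b (0.977), Mov10 (0.976), Ptprc (0.974), Dmpk (0.969) and Fam49b (0.967). The sets had no gene in common. Epsti1 stood at 23.9, 17.3, 16.9, 22.3 and 21.4 TPM in KO replicates 1 to 5 and at 25.4 TPM in WT replicate 6, with the other WT libraries between 9.13 and 16.04 TPM. Ptprc, which encodes the leukocyte antigen CD45, stood at 124 to 148 TPM in KO libraries, against 115 to 139 TPM in WT replicates 1, 5, 6 and 7 and 52.2 to 76.2 TPM in WT replicates 2, 3 and 4.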

How the data were processed

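Per the labels' protocols, RNA of 12 macrophage libraries was read from both ends, 51 bases each. The deposited table holds TPM values per gene, which the authors made with bcl2fastq, Salmon 1.2.0 and mm10, per the submitters' processing notes. Each library summed to between 940127 and 947987 TPM over 23438 rows, and no per-sample column was left unused (0). Without counts, no depth, interval or floor per gene can be given.

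Libraries were grouped by the genotype in the labels. Ensembl IDs were named from GENCODE M21 (23423 matched). Psmb9 was not analysed here, and some values of the regulator list are not reported here. The 11152 genes reaching 1 TPM in 5 or more libraries were fitted on log2(TPM + 1) with limma 3.58.1 (trend) in R 4.3.3, KO against WT, with Benjamini-Hochberg adjustment and a threshold of 0.05. Differences on this scale understate the change of low genes. Ratios within a library were compared by two-sided exact permutation tests and adjusted over the 4 ratios. The code was tested on simulated data with 200 changed genes. Promoter windows came from RefSeq (GRCm38.p6), where 8 of 10 listed genes matched; Tap2 and Nlrc5 are named only. The listed genes and all other lists were chosen with earlier results of these data known. From each list the text names the members that passed and up to 3 with the largest difference and a mean of at least 5 TPM, and the 5 genes closest in pattern. Genes named for the set without WT replicates 2, 3, 4 and 6, and H2-Q7, were chosen after their values were seen.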

Additional observations from a re-analysis of the deposited data

Results flagged for a closer look

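Among 26 checks of a group for 1 library far from the rest, 2 passed Dixon's 95% critical value of 0.568 for 7 libraries, and chance alone passes it in about 1 of 20 groups. Tap1 in WT replicate 6, at 46.82 TPM, lay above the other WT libraries, whose highest was 28.75 TPM (gap over range 0.625). Nlrc5 in WT replicate 4, at 4.19 TPM, lay below the other WT libraries, whose lowest was 10.2 TPM (gap over range 0.678).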

How the results depend on the processing

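The number of all genes that passed, 14 with 12 libraries, was 260 without WT replicates 2, 3 and 4, 462 without WT replicates 2, 3, 4 and 6, 4 with median-ratio scaling, 221 with that scaling in 9 libraries, and 759 with sample weights. With a block of 2 sets, submission number up to 5 and above 5, it was 3 and 132 in 12 and 9 libraries. Leaving out each library gave 2 to 36 genes from 12 (21 without WT replicate 4, 36 without WT replicate 6 and 2 to 5 without each of the others). From 9 it gave 51 to 462 (51 without WT replicate 1, 462 without WT replicate 6, 316 without KO replicate 1, 245 without KO replicate 5 and 72 to 125 without each of the others). Settings without KO replicates 1 and 4, chosen after seeing the data, gave 3 genes, 263 (also without WT replicates 2, 3 and 4) and 546 (also without WT replicate 6).

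Of the 9 listed genes 0 passed, except 1 in each of 3 settings: without WT replicates 2, 3, 4 and 6 (H2-T23, 0.34, limma adjusted p of 0.0164), with KO replicates 1 and 4 left out too (H2-T23, 0.40, limma adjusted p of 0.00484), and with sample weights (Nlrc5, 0.37, limma adjusted p of 0.0355). Leaving out each library gave 0 listed genes from 12 and 0 to 1 from 9, with H2-T23 at 0.52 to 0.92 and 0.11 to 0.34. Signs changed only without KO replicates 1 and 4: H2-K1 to -0.0238, and, without WT replicates 2, 3 and 4 as well, H2-K1 to -0.0942, Tap1 to -0.0254 and Psmb8 to -0.0553, all 3 of which were positive again without WT replicate 6 too.

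Without WT replicates 2, 3 and 4 the log2 ratio of Psmb10 to Psmb7 differed by -0.0603 and that of the heavy chains to B2m by 0.0418, and the heavy chain ratio by 0.0041 with WT replicate 6 left out. Leaving out each library kept Psmb8 to Psmb5 at 0.39 to 0.64 (0.64 without WT replicate 6). Without KO replicates 1 and 4 and WT replicates 2, 3 and 4 the differences were -0.0075 for Psmb8 to Psmb5, -0.15 for Psmb10 to Psmb7 and -0.10 for Tap1 to Tap2, and Psmb10 to Psmb7 was at -0.0374 with WT replicate 6 left out too. The causes of these changes were not tested. Of the listed genes' alternatives, 316 kept direction and side of the threshold.

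With the replicate block on the 10 libraries numbered 1 to 5, 0 genes passed (3706 at an unadjusted p under 0.05), against 13 without it in the same libraries. Same-numbered libraries had correlations of -0.22 to 0.22, and 2 of 5 KO libraries were closest to their own number. This check cannot decide whether same-numbered libraries were paired, since the WT libraries rich in fibroblast and smooth muscle transcripts were among those compared. For the paired ratios the smallest p that sign flips allow is 0.0625. Psmb9 gave no value under any setting.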

Other observations

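H2-Q7, a class I gene close in sequence to H2-Q6, had the same high KO libraries as H2-K1, with a wider range. It stood at 50.8, 8.43, 9.55, 37.9 and 11.98 TPM in KO replicates 1 to 5 and at 25.9 TPM in WT replicate 6, with the other WT libraries between 8.54 and 17.6 TPM. H2-Q6 stood at 32.4, 8.88, 9.78, 22.9 and 11.7 TPM in KO replicates 1 to 5 and at 22.5 TPM in WT replicate 6, with the other WT libraries between 5.44 and 15.4 TPM. The level of each of these close relatives is uncertain, since how reads were shared between them is not known here.

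Gbp2, which encodes a guanylate-binding protein that interferon induces, had its highest levels in WT replicates 2, 3 and 4, where Oasl2 and Zbp1 had their lowest. It stood at 2.52 to 3.93 TPM in KO libraries and at 1.61 to 2.3 TPM in WT replicates 1, 5, 6 and 7, while WT replicates 2, 3 and 4 had 11.8, 10.1 and 13.8 TPM. In WT replicate 6, which had the most Irf7, Gbp2 was at 2.3 TPM.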
